A study of Mus musculus with 2 samples.

Results

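The collagen genes of the mouse were examined as RNA targets of Mbnl2 in quadriceps muscle. They were taken as the protein-coding genes of the mm9 GENCODE vM1 annotation whose symbol is Col, a number, the letter a and a number, which gave 43 of 22380 protein-coding genes (37310 annotated genes of any kind). Mbnl2 was crosslinked to RNA in powdered frozen muscle and the bound fragments (tags) were sequenced by HITS-CLIP, after RNase A digestion at 38.6 or 0.0386 U/ml. The WT muscles (Mbnl1+/+) and the Mbnl1 KO muscles (Mbnl1-/-, the constitutive Mbnl1 ΔE3 allele, labelled C57BL/6 in both groups) came from mice of 15 to 16 weeks, 3 per genotype, which were merged into 1 tag table each. Mouse-to-mouse spread is thus unknown, and the genotypes were compared without a test. All Mbnl1 KO/WT ratios below divide tags scaled to 1000000 tags of the table (written per 1000000), unless another scaling is named. Where tags are filtered, the table total counts only the tags that pass, so the scaling changes as well. The 95% intervals are exact (Clopper-Pearson), cover counting error only and compare these 2 libraries.

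Collagens are the main fibrous proteins of the extracellular matrix that wraps muscle fibres and bundles. Fibrillar collagens carry an uninterrupted Gly-X-Y repeat that winds into a triple helix, type IV collagens build the network of basement membranes, and type VI collagens form beaded filaments that link the basement membrane to the matrix. In muscle they are made mostly by fibroblasts, with type IV chains also from endothelial cells and fibres. Muscleblind-like proteins bind single-stranded RNA at short motifs, written here as TGCT and its relatives TGCC (C last), CGCT (C first) and CGCC (C first and last), in introns, coding exons and 3′ UTRs.

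The tables held 343554 tags (WT) and 476543 tags (Mbnl1 KO). Tags whose sequence was at least 70% 1 base, called single-base tags here, made up 44.0% of the WT and 17.0% of the Mbnl1 KO tags on assembled chromosomes, and this difference enters every scaled ratio. Scaling multiplies the raw Mbnl1 KO/WT tag ratio by 0.721 with all tags and by 0.492 with single-base tags left out. Leaving them out thus lowers a ratio even at genes that lose no tag. All 12 muscle fibre marker genes had at least 20 tags, 1062 in WT and 3886 in Mbnl1 KO together. Every tag in both tables was 1 unbroken block, so fragments across exon junctions were not counted. RNA levels were not measured in these samples, so tags were not divided by transcript abundance. In whole muscle, fewer cells of a type and less RNA per cell cannot be told apart.

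Summed over the collagens most tags lay on exons, although 14 of the 26 genes with at least 20 tags had more intronic than exonic tags. The summit windows (30 nt, mm9, written 5′ to 3′ on the strand of the transcript) of the 10 largest tag clusters are shown in order of tag number, because they hold the sites with the most tags; capitals mark the 4 motifs. The first lies in Col6a3 coding sequence (chr1:92672529-92672558, minus strand) and the sixth beside it (chr1:92672646-92672675). The second is in the Col1a1 3′ UTR (chr11:94814144-94814173, plus strand) and the third in coding exon 2 of Col1a1 (chr11:94799309-94799338). The fourth lies in the Col6a1 3′ UTR (chr10:76171705-76171734, minus strand), the fifth in the Col6a3 3′ UTR (chr1:92663839-92663868) and the seventh in the Col6a2 3′ UTR (chr10:76058621-76058650, minus strand). The last 3 lie in Col1a1, in the 3′ UTR (chr11:94813270-94813299), in coding exon 38 (chr11:94808754-94808783) and in the coding part of exon 51 (chr11:94812906-94812935). The windows of Col1a1 exon 2 and of Col6a1 hold none of the motifs.
Col6a3 coding: ccagcTGCTGCTaagccagtcccTGCTaag
Col1a1 3′ UTR: cctcccctctTGCTGCTGCTccctcccctc
Col1a1 exon 2: ccacaatggcacggctgtgtgcgatgacgt
Col6a1 3′ UTR: cacccagaggcttagcttggacagttcaca
Col6a3 3′ UTR: ctctggagttccaCGCTaCGCCtgTGCCag
Col6a3 coding, neighbour: gccccTGCTaagccagcttcTGCTaagttg
Col6a2 3′ UTR: agtcccttctgaaagctgtcTGCTggcctg
Col1a1 3′ UTR, second site: ttatgataccctaaTGCTGCCttttcTGCT
Col1a1 exon 38: actggcttccctggTGCTGCTggccgtgtc
Col1a1 exon 51: agacattggcccTGCCTGCTtcgtgtaaac

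Across the 43 genes, 632 WT tags and 1894 Mbnl1 KO tags lay on the gene's strand, a ratio of 2.16 (1.97 to 2.37). The opposite strand of these genes held 255 and 256 tags. That was 28.7% (25.8 to 31.9) of the tags on both strands in WT and 11.9% (10.6 to 13.4) in Mbnl1 KO, beside 43.9% and 27.3% over all protein-coding genes. Of these genes, 42 had at least 1 tag, 26 had at least 20 tags in the pooled tables, and 17 had fewer (0 to 16 tags). Col9a3 had 0 tags in both, which allows up to 8.73 tags per 1000000 in WT and 6.30 in Mbnl1 KO. The median ratio over the 26 genes was 1.80, beside 1.75 over the 3888 protein-coding genes that had as many. The 95% interval lay above 1 at 14 of the 26, a share to be read against 38.6% of all such protein-coding genes. The ratio was at least 2 at 10 of the 26, beside 41.6% of all, and no collagen gene had an interval below 1, beside 3.83%. Ratios of at least 2 were thus about as frequent among all protein-coding genes.

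**Figure D1:**
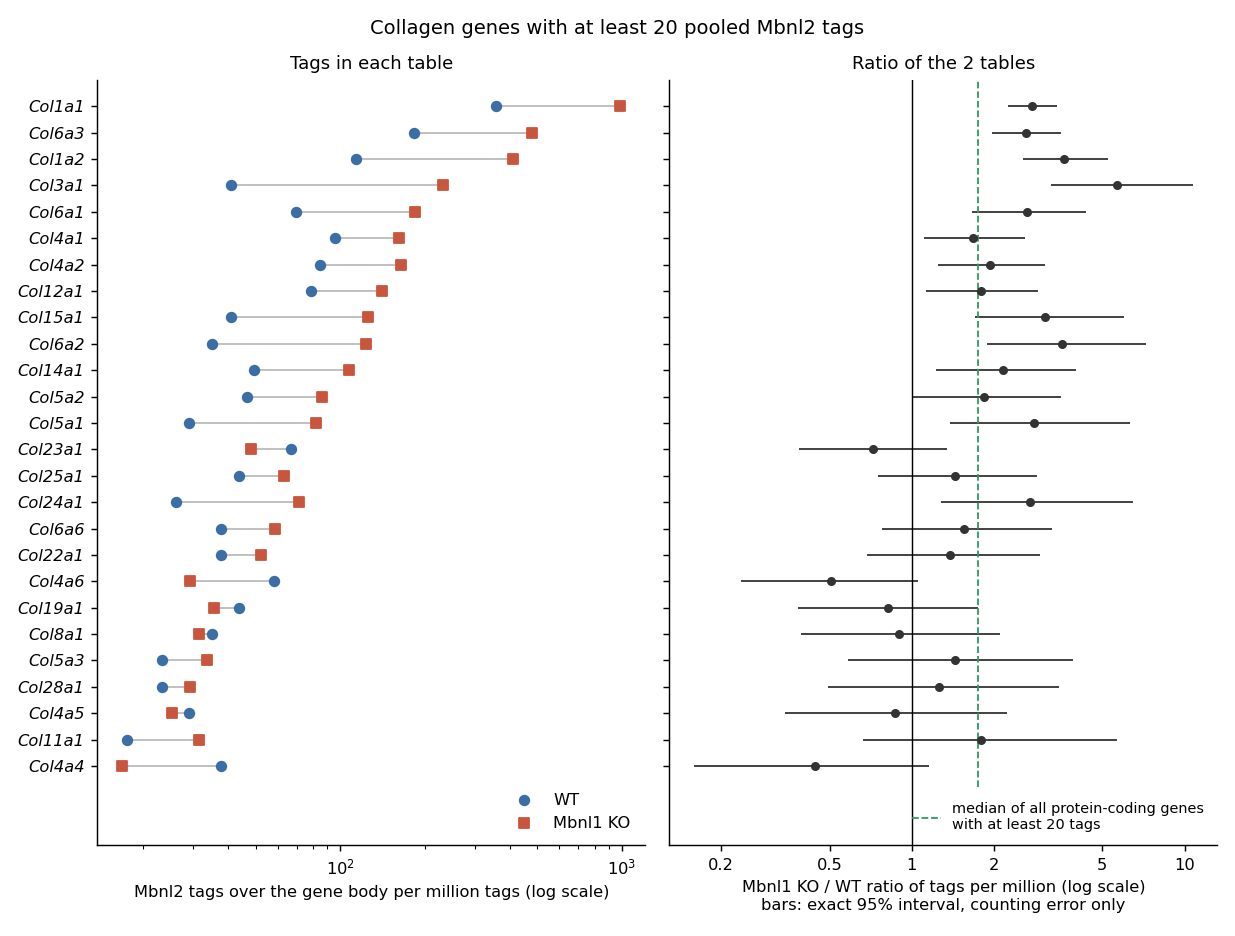
Mbnl2 tags per 1000000 tags (left, log scale) in the WT and Mbnl1 KO tables for the 26 collagen genes with at least 20 tags, and their Mbnl1 KO/WT ratio with its exact 95% interval (right, log scale). Col1a1 holds the most tags, Col3a1 has the highest ratio (5.66), and the dashed line is the median of all protein-coding genes (1.75).

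The fibrillar collagens held 232 WT and 947 Mbnl1 KO tags (ratio 2.94, 2.55 to 3.41). Col1a1 (chr11:94797538-94814356, plus strand), the α1 chain of type I collagen, drew 123 tags in WT and 471 in Mbnl1 KO, equal to 358 and 988 per 1000000. By tag number it ranked 11 of 22380 protein-coding genes in WT and 3 in Mbnl1 KO. Its ratio was 2.76 (2.26 to 3.39). Its partner chain Col1a2 (chr6:4454814-4491543) had 39 and 196 tags, or 114 and 411 per 1000000, with a ratio of 3.62 (2.56 to 5.25). Both chains of type I collagen thus had an interval above 1. Col3a1 (chr1:45368383-45406551), type III collagen, had 14 and 110 tags, or 40.8 and 231 per 1000000, and the highest ratio of the 26 (5.66, 3.24 to 10.7). Its rank went from 1499 in WT to 175 in Mbnl1 KO. The WT count behind that ratio was small, as its wide interval shows.

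The minor fibrillar chains carried fewer tags. Col5a1 and Col5a2, the type V chains that set fibril diameter, had 10 and 39 tags (2.81, 1.38 to 6.32) and 16 and 41 tags (1.85, 1.01 to 3.53). Both intervals held 1 with single-base tags left out, at 1.92 (0.941 to 4.31) and 1.25 (0.640 to 2.59). Col5a1 kept all its tags and Col5a2 kept 13 and 33, so these falls came almost wholly from the changed total. Col5a3 had 8 and 16 tags (1.44, 0.582 to 3.89), and Col11a1, best known from cartilage, 6 and 15 (1.80, 0.661 to 5.67). Neither can be told from 1 at this depth. Col24a1 had 9 WT and 34 Mbnl1 KO tags (2.72, 1.28 to 6.46), of which 9 and 31 were intronic. The tags of Col11a1 (5 of 6 and 9 of 15) and of Col27a1 (3 of 3 and 6 of 8), which is named here although it had only 11 tags, were also mostly intronic. Col2a1, the main cartilage collagen, had 2 and 8 tags, and Col11a2 had 2 and 9.

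The beaded filament class held 118 WT and 413 Mbnl1 KO tags (2.52, 2.05 to 3.12). Col6a3 (chr1:92663435-92740529, minus strand) carried most of them, with 63 and 229 tags, or 183 and 481 per 1000000 (2.62, 1.97 to 3.52). Col6a1 had 24 and 88 tags (2.64, 1.67 to 4.34), and Col6a2 had 12 and 59 (3.54, 1.89 to 7.25). These 3 genes encode the chains of the classical type VI collagen heterotrimer, and all had an interval above 1. Col6a6, a later-described chain that resembles Col6a3, had 13 and 28 tags (1.55, 0.778 to 3.27).

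The basement membrane class held 110 WT and 195 Mbnl1 KO tags (1.28, 1.01 to 1.63). Col4a1 and Col4a2, the pair found in nearly all basement membranes, had 33 and 77 tags (1.68, 1.11 to 2.61) and 29 and 78 tags (1.94, 1.25 to 3.08). These intervals held 1 as well once single-base tags were left out, at 1.14 (0.742 to 1.78) and 1.48 (0.936 to 2.40). The tags kept were 32 and 74 for Col4a1 and 26 and 78 for Col4a2, so these falls came mainly from the changed total. The starts of Col4a1 and Col4a2 overlap on opposite strands of chromosome 8. The intervals of the other type IV genes with at least 20 tags held 1. Col4a6 had 20 WT and 14 Mbnl1 KO tags (0.505, 0.236 to 1.05), Col4a4 had 13 and 8 (0.444, 0.159 to 1.15), and Col4a5 had 10 and 12 (0.865, 0.343 to 2.24). Col4a4 was the 1 collagen gene with a ratio of at most 0.5, beside 3.76% of all protein-coding genes, and its interval includes 1.

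Among the FACIT collagens, which decorate fibril surfaces, Col12a1 had 27 and 67 tags (1.79, 1.13 to 2.91) and Col14a1 had 17 and 51 (2.16, 1.23 to 3.99). Neither could be told from 1 with single-base tags left out, at 1.15 (0.721 to 1.87) and 1.62 (0.873 to 3.18). They kept 27 and 63 tags and 14 and 46 tags, so these falls came mainly from the changed total. Col22a1, a collagen of tissue junctions such as the myotendinous junction, had 13 and 25 tags (1.39, 0.683 to 2.95), and Col19a1 had 15 and 17 (0.817, 0.384 to 1.76). The multiplexin Col15a1, a basement membrane component of muscle and capillaries, had 14 and 60 tags (3.09, 1.71 to 5.99). The transmembrane collagens Col23a1 (23 and 23 tags, 0.721, 0.387 to 1.34) and Col25a1 (15 and 30 tags, 1.44, 0.752 to 2.88) could not be told from 1. The same held for the short-chain collagen Col8a1 (12 and 15 tags, 0.901, 0.394 to 2.11) and for Col28a1 (8 and 14 tags, 1.26, 0.494 to 3.47). The interval thus lay above 1 for the fibrillar, beaded filament, FACIT, multiplexin and, barely, basement membrane sums. It held 1 for the transmembrane (0.966, 0.660 to 1.42) and short-chain (0.961, 0.468 to 2.02) sums and for the other collagens, which had the same ratio as the basement membrane class on fewer tags (1.28, 0.533 to 3.29). With single-base tags left out, the basement membrane (1.04, 0.801 to 1.36) and FACIT (1.19, 0.885 to 1.62) intervals also held 1. With at least 2 reads per tag the multiplexin interval held 1 (1.64, 0.814 to 3.66), and with both filters the beaded filament interval did (1.20, 0.917 to 1.59). The directions also rest on scaling by all tags. With the median protein-coding gene set to 1, the fibrillar (1.69, 1.46 to 1.95) and beaded filament (1.45, 1.18 to 1.79) sums stayed above 1, while the FACIT (0.896, 0.680 to 1.19) and multiplexin (1.36, 0.823 to 2.33) intervals held 1. The basement membrane (0.732, 0.577 to 0.934) and transmembrane (0.553, 0.378 to 0.815) sums then lay below 1. On that scale 5 of the 26 genes had an interval above 1 (Col1a1, Col1a2, Col3a1, Col6a2 and Col6a3), beside 11.8% of all protein-coding genes, and 3 below it (Col4a4, Col4a6 and Col23a1), beside 14.9%. Of the WT tags of Col4a4 and Col4a6, 7 of 13 and 10 of 20 were single-base. On the opposite strand Col4a4 had 8 WT and 11 Mbnl1 KO tags, Col4a6 had 14 and 23, and Col23a1 had 26 and 16. These numbers are of similar size to those on their own strand, and whether their ratios reflect strand-specific binding was not tested.

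Summed over the collagens, tags lay at other positions within the gene than in other protein-coding genes. Of the collagen tags, 56.5% in WT (52.5 to 60.4) and 76.8% in Mbnl1 KO (74.9 to 78.7) were exonic, against 23.7% and 41.2% over the other protein-coding genes. Without the 4 genes with most tags (Col1a1, Col6a3, Col1a2 and Col3a1) the exonic share was 33.3% in WT (28.7 to 38.2) and 54.5% in Mbnl1 KO (51.2 to 57.8). A high exonic share was not particular to collagens. Of the fibroblast marker tags counted below, 124 of 169 in WT and 642 of 718 in Mbnl1 KO were exonic. For muscle fibre markers it was 817 of 1062 and 2823 of 3886, and for endothelial markers a lower 20 of 92 and 96 of 176. Of the collagen exonic tags, 49.9% (44.6 to 55.2) in WT and 63.1% (60.6 to 65.6) in Mbnl1 KO lay in coding sequence, against 25.2% and 24.1% elsewhere. The 3′ UTR took 45.7% and 34.9% of collagen exonic tags, against 67.6% and 71.6% of those in other genes. Without Col1a1 the coding share was 45.3% in WT (38.8 to 51.9) and 62.1% in Mbnl1 KO (59.0 to 65.1). Without the 4 genes with most tags it was 24.4% in WT (17.3 to 32.7), an interval that holds the value of other genes, and 39.0% in Mbnl1 KO (34.7 to 43.6). The coding share in WT thus rested on these 4 genes, while in Mbnl1 KO the remaining members also lay above other genes.

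**Figure D2:**
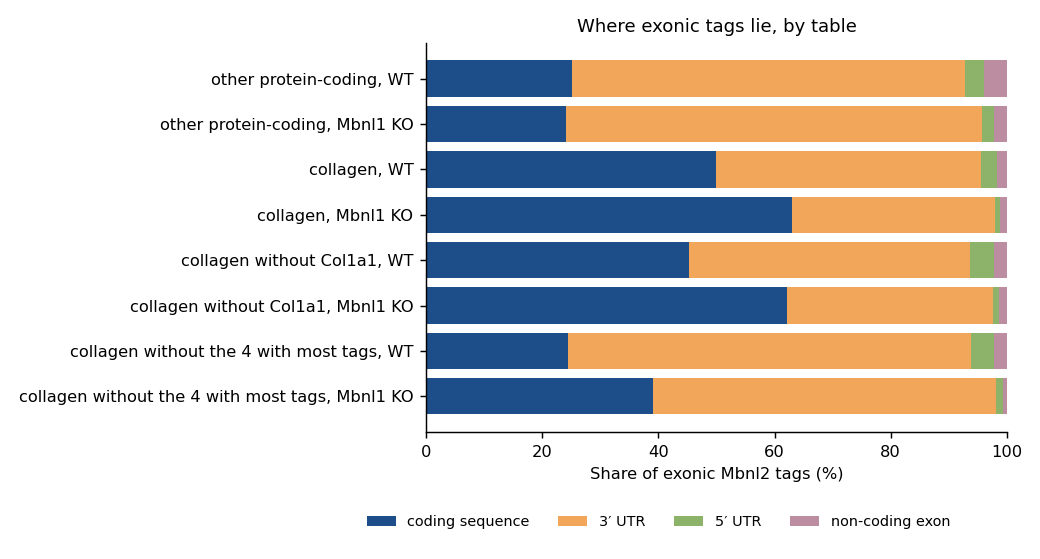
Share of exonic Mbnl2 tags (%) in coding sequence, 3′ UTR, 5′ UTR and non-coding exons, for other protein-coding genes and the collagen genes with all members, without Col1a1 and without the 4 genes with most tags, in each table. Coding sequence holds 49.9% and 63.1% of collagen exonic tags and 25.2% and 24.1% of those of other genes, and without the 4 genes with most tags 24.4% and 39.0%.

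Coding and 3′ UTR lengths also differed between the collagens and other genes. Coding sequence made up 76.8% of the joint coding and 3′ UTR length of the collagens, against 57.2% in other genes. Per kilobase, collagen coding sequence had 2.58 tags per 1000000 in WT and 9.60 in Mbnl1 KO, and collagen 3′ UTRs had 7.84 and 17.6. The 3′ UTR was therefore the denser region in the sum. Col1a2 (23.3 and 88.2 in coding sequence against 13.2 and 28.5) and Col3a1 (2.64 and 42.9 against 0 and 19.6) had the opposite order. In other genes coding sequence had 0.427 and 1.14 tags per 1000000 per kilobase, and 3′ UTRs had 1.53 and 4.53. Fragments across exon junctions were not counted, which lowers coding densities by an amount that was not tested.

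The ratios also differed by region. Collagen coding sequence went from 178 to 918 tags (3.72, 3.16 to 4.39), the 3′ UTRs from 163 to 508 (2.25, 1.88 to 2.70), and introns from 275 to 439 (1.15, 0.988 to 1.34). Over all protein-coding genes the order of the exonic regions was the opposite, with 2.71 (2.63 to 2.79) in coding sequence and 2.96 (2.90 to 3.01) in 3′ UTRs, and introns at 1.24. For exons together, the collagen ratio of 2.94 (2.62 to 3.31) was close to the 2.80 of all protein-coding genes, and the median over the 13 collagen genes with at least 20 exonic tags was 3.17, beside 3.18. Among these 13 genes, 12 had an interval above 1 (75.7% of all protein-coding genes with as many exonic tags) and 12 a ratio of at least 2 (84.2% of all), and the exception to both was Col4a1 (1.67, 0.996 to 2.89). Of the 17 genes with at least 20 intronic tags, 1 had an interval above 1, beside 19.7% of all protein-coding genes. That gene was Col24a1 (2.48, 1.15 to 5.93), while the intronic ratio of Col4a6 was 0.417 (0.179 to 0.923), the 1 interval below 1, beside 6.64% of all. With single-base tags left out, neither gene's ratio over all its tags could be told from 1, with 7 and 32 tags at Col24a1 (2.25, 0.975 to 6.04) and 10 and 11 at Col4a6 (0.541, 0.209 to 1.42), and none of 22 collagen genes had an interval below 1, beside 2.0% of all.

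The balance between coding sequence and 3′ UTR differed from gene to gene. In Col1a2, 33 of 37 WT and 173 of 186 Mbnl1 KO exonic tags were coding (89.2% and 93.0%), spread over the transcript. Col3a1 had 4 of 9 WT exonic tags in coding sequence and 90 of 102 in Mbnl1 KO (88.2%, 80.4 to 93.8), and the other 5 WT exonic tags lay in the 5′ UTR. Col1a1 had 72 and 305 coding tags beside 50 and 157 in its 3′ UTR. Col6a3 had 37 and 161 coding tags beside 18 and 44. By contrast, the 3′ UTR held 20 of 24 and 70 of 88 exonic tags of Col6a1, 8 of 10 and 39 of 55 of Col6a2, and 15 of 22 and 46 of 66 of Col4a2. Col12a1 (5 and 23 coding tags, 8 and 30 in the 3′ UTR) and Col15a1 (3 and 22, 4 and 19) lay between. Col4a1 had 19 WT and 30 Mbnl1 KO tags in its 3′ UTR and 3 and 21 in coding sequence. Its coding ratio was 5.05 (1.51 to 26.4) and its 3′ UTR ratio 1.14 (0.620 to 2.14).

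**Figure D3:**
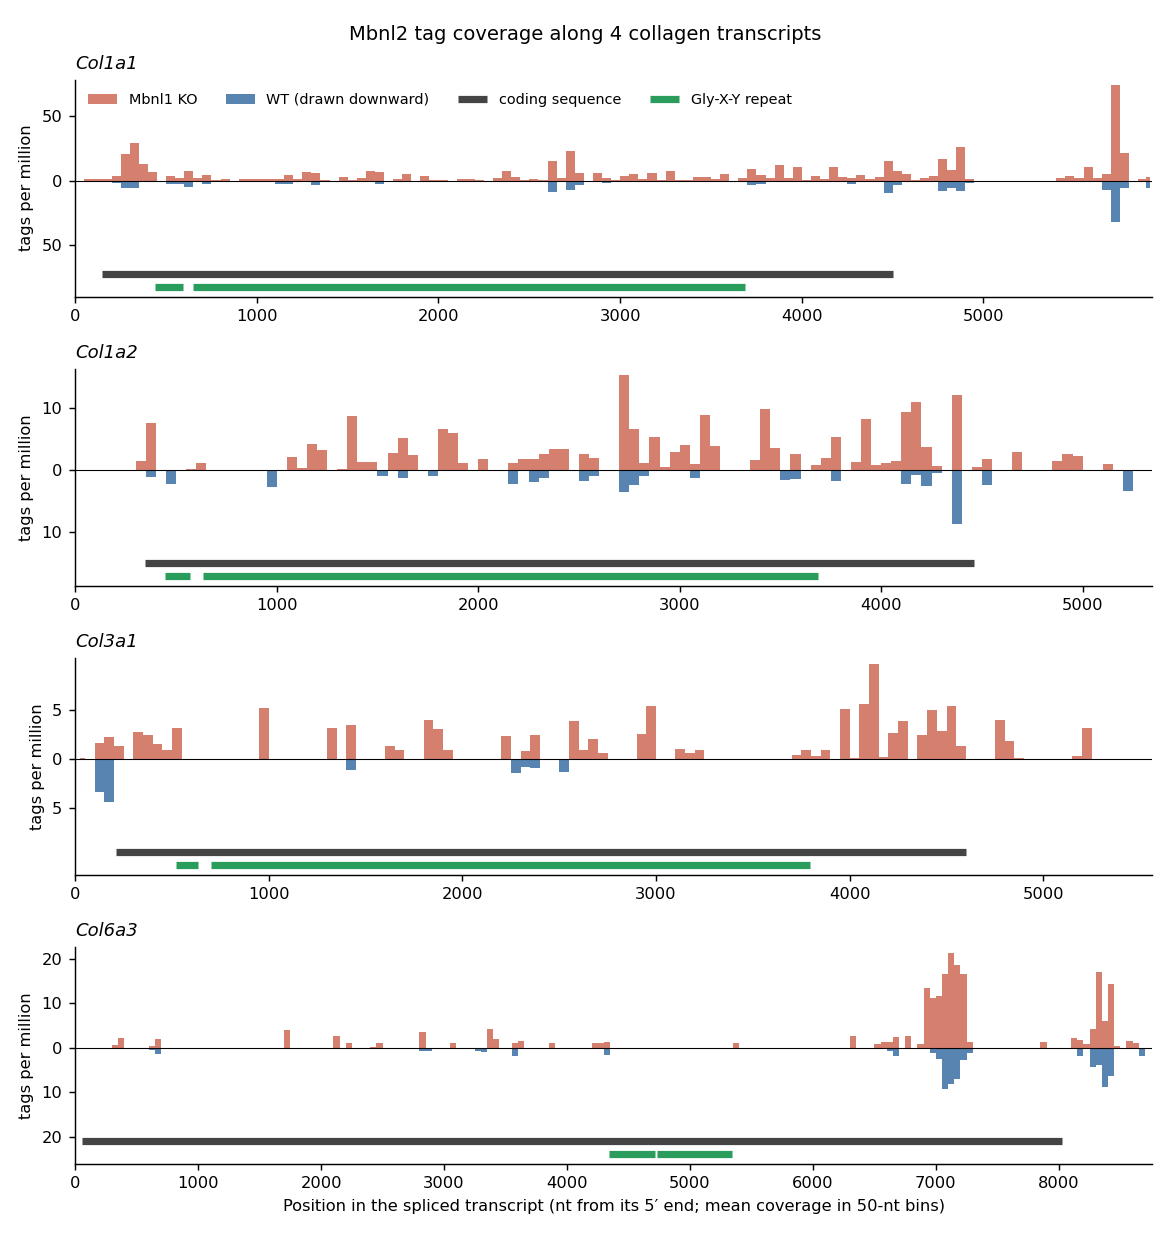
Mean Mbnl2 tag coverage in 50-nt bins (tags per 1000000) along the spliced longest coding transcript of Col1a1, Col1a2, Col3a1 and Col6a3, with Mbnl1 KO drawn upward and WT downward. Grey bars mark coding sequence and green bars the Gly-X-Y repeat, which holds many small Col1a1, Col1a2 and Col3a1 sites and no Col6a3 tag.

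The Gly-X-Y repeat was located in each longest coding transcript as runs of at least 10 triplets that begin with a glycine codon. Summed over the 43 genes, the repeat went from 67 WT to 337 Mbnl1 KO tags (3.63, 2.78 to 4.79) and the other coding sequence from 106 to 562 (3.82, 3.10 to 4.75), so the ratios of these regions did not differ beyond counting error. Col1a1, Col1a2 and Col3a1 held 61 of the WT and 306 of the Mbnl1 KO repeat tags. Col1a1 had 36 and 150, Col1a2 had 21 and 115, and Col3a1 had 4 and 41. In Col1a1 the repeat was the less densely tagged part, with 32.8 and 98.5 tags per 1000000 per kilobase against 90.0 and 279 in the rest of its coding sequence. The same order held for Col1a2, with 19.2 and 76.0 against 37.2 and 130. In Col3a1 it held in Mbnl1 KO only (26.8 against 87.2), since in WT all 4 tags lay in the repeat. Fragments across exon junctions were not counted, so the order of these densities also depends on exon lengths. How far it does was not tested. Col6a3, whose 996 nt of repeat are a small part of its coding sequence, had 0 tags there in both tables.

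The 4 motifs were also unevenly spread among the repeats. They occurred 27.9 times per kilobase in the Col1a1 repeat, 21.1 in Col1a2, 19.2 in Col2a1 and 13.4 in Col3a1, and 1.01 to 11.3 times in the other 39 genes. Of the 89 motifs in the Col1a1 repeat, 41 began at the last base of a glycine codon and ran through a following alanine codon, as did 30 of 67 in Col1a2 and 22 of 43 in Col3a1. The exon 38 window of Col1a1 printed above lies in this repeat. Motif number was counted on the transcript strand, overlapping motifs each counted, and a motif is a match of letters and not a binding site. Tag number also follows transcript level, which was not measured, so motif density and abundance cannot be told apart here.

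Tags formed clusters of at least 5 overlapping tags (both tables pooled) at 94 places in collagen genes, of which 87, in 14 genes, were not made mostly of single-base tags. Col1a1 had 28 of these clusters, Col1a2 had 17, and Col6a3, Col6a1 and Col3a1 had 7 each. Of the 87, 56 lay in coding sequence, 23 of them in Col1a1 and 17 in Col1a2, and 26 in 3′ UTRs. Among all 5421 such clusters in protein-coding genes, 741 were coding and 3079 in 3′ UTRs. The median ratio was 4.53 over the coding clusters and 1.998 over the 3′ UTR clusters of the collagens, and 3.60 for either kind over all protein-coding genes. Because the deeper Mbnl1 KO table contributes more tags, clusters called on pooled tags lean toward it.

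A motif stood in the 30-nt summit window of 62 of the 87 collagen clusters (71.3%, 60.6 to 80.5), beside 66.2% (64.9 to 67.4) of all such clusters in protein-coding genes. In coding sequence the share was 71.4% (57.8 to 82.7) against 58.6% (54.9 to 62.1), and in 3′ UTRs 69.2% against 71.2%. For comparison, 49.5% of all 30-nt windows of Col1a1 coding sequence and 36.3% of those of Col6a3 hold a motif. Tags were also counted in place of clusters, with single-base tags left out. A motif was held by 70.2% of WT and 62.5% of Mbnl1 KO coding tags of collagens, against 47.5% and 50.1% of coding tags in other genes. Col1a1 had 72 and 305 of the collagen coding tags and Col6a3 had 37 and 161, and the share without these genes was not counted. In 3′ UTRs, again without single-base tags, 102 of 162 WT tags (63.0%) and 325 of 500 Mbnl1 KO tags contained a motif, against 58.9% and 58.8% in other genes. In introns, counted likewise, the shares were 41.1% and 48.7% against 41.3% and 50.8%.

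The largest cluster was in Col6a3. It ran from 92672342 to 92672626 on chromosome 1 with 29 WT and 94 Mbnl1 KO tags (2.34, 1.53 to 3.68), and its neighbour, from 92672628 to 92672768 in exon 36 of 43, had 2 and 30 (10.8, 2.74 to 93.4). The summit of the first falls in exon 3 of 9 of a shorter coding transcript, since the annotated exons of the gene disagree there. Together these 427 nt held 31 of 63 WT tags (49.2%) and 124 of 229 Mbnl1 KO tags (54.1%) of the whole gene. The stretch is a coding repeat with 25 motifs, 19 of them TGCT, which is 58.5 motifs per kilobase against 16.7 over all Col6a3 coding sequence. Of its 155 tags, 80 had a sequence that occurs more than once within the stretch, so their exact place in it is uncertain.

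Col1a1 held 5 of the 10 largest clusters. The largest of them, in the 3′ UTR in exon 51 of 51 (94814097 to 94814223 on chromosome 11), had 31 WT and 85 Mbnl1 KO tags (1.98, 1.30 to 3.09), and its window has TGCT repeated in tandem between runs of c and t. A second 3′ UTR cluster, from 94813254 to 94813331, had 7 and 25 tags (2.57, 1.08 to 7.05). Exon 2, which lies ahead of the triple helix, carried 9 and 59 tags from 94799247 to 94799417 (4.73, 2.33 to 10.8) with no motif at the summit. The exon 38 cluster had 7 and 21 tags (2.16, 0.886 to 6.02) and the coding cluster in exon 51 had 10 and 17 (1.23, 0.530 to 3.00). The highest site of Col1a1 was thus at its 3′ end in both tables, and the intervals of these 5 ratios overlap.

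A further 3 of these 10 clusters were in 3′ UTRs of type VI genes. Col6a1 had 12 and 35 tags from 76171628 to 76171780 on chromosome 10 (2.10, 1.07 to 4.45), with no motif in its window. In Col6a3 the 3′ UTR cluster from 92663743 to 92663883 had 12 and 32 tags (1.92, 0.964 to 4.10). Col6a2 had 5 and 27 from 76058551 to 76058661 (3.89, 1.48 to 12.9). The 3′ UTR sites of all 3 classical type VI chains were thus among the 10 largest collagen clusters.

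Genes that make, bind or degrade collagen were counted beside it. Of 37 names for biosynthesis and cross-linking, 30 were found and 7 had at least 20 tags, of which 3 had an interval above 1 (38.6% of all protein-coding genes), and their summed ratio was 1.94 (1.56 to 2.41), or 3.87 (2.73 to 5.63) on exons. These 3 were P4hb, the β subunit of prolyl 4-hydroxylase (6 and 32 tags, 3.84, 1.59 to 11.2), and the cross-linking oxidases Loxl2 (9 and 32, 2.56, 1.20 to 6.11) and Lox (9 and 28, 2.24, 1.03 to 5.40). The intervals of Loxl2 (1.75, 0.816 to 4.17) and Lox (1.53, 0.702 to 3.69) held 1 with single-base tags left out. Neither gene lost a tag, so this came from the changed total alone. The collagen chaperone Serpinh1, which did not reach 20 tags, had 1 and 17 tags, a ratio of 12.3 with an interval of 1.92 to 512. Of the 10 receptors, 5 had at least 20 tags and 3 an interval above 1, namely the integrin chain Itgb1 (17 and 68, 2.88, 1.68 to 5.24), the receptor kinase Ddr2 (17 and 44, 1.87, 1.04 to 3.48) and the uptake receptor Mrc2 (5 and 23, 3.32, 1.23 to 11.2). With single-base tags left out, 1 of 3 receptors with at least 20 tags had an interval above 1 (Itgb1, 1.94, 1.13 to 3.52), beside 26.5% of all protein-coding genes. Ddr2 kept 15 and 43 tags, so its fall to 1.41 (0.768 to 2.73) came from the changed total. Mrc2, with 2 and 12, no longer reached 20 tags. Of 8 turnover genes, 3 had at least 20 tags and all 3 had an interval above 1. They were the gelatinase Mmp2 (10 and 92 tags, 6.63, 3.45 to 14.3) and the inhibitors Timp2 (54 and 189, 2.52, 1.86 to 3.48) and Timp3 (24 and 86, 2.58, 1.63 to 4.25).

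Markers of the cell types in the tissue were counted in the same way. The 14 fibroblast markers (collagens left out) went from 169 to 718 tags (3.06, 2.59 to 3.64), and 8 of the 10 that had at least 20 tags had an interval above 1, beside 38.6% of all protein-coding genes. Decorin (Dcn) had 18 and 92 tags, Sparc had 39 and 132, and fibronectin (Fn1) had 15 and 79. The intervals of Thy1 (10 and 11 tags, 0.793, 0.306 to 2.08) and Pdgfra (6 and 15, 1.80, 0.661 to 5.67) held 1. The 7 endothelial markers had 92 and 176 tags (1.38, 1.07 to 1.79), of which 20 and 96 were exonic (3.46, 2.12 to 5.92). Of the 6 with at least 20 tags, 1 had an interval above 1 (Cdh5, 3.05, 1.65 to 6.09), and their median ratio was 1.04. All 24 WT tags of Tek were single-base, while 21 of its 26 Mbnl1 KO tags were not. With such tags left out the intervals of 2 of the 6 (Cdh5 and Tek) lay above 1, beside 26.5% of all protein-coding genes, with a median of 1.27. The 12 muscle fibre markers had a ratio of 2.64 (2.46 to 2.83), with all 12 intervals above 1. The 4 macrophage markers had 0.721 (0.392 to 1.33), from 24 tags in each table, of which 3 and 12 were exonic (2.88, 0.778 to 15.9). Satellite cell (9 and 11 tags) and Schwann cell markers (2 and 9 tags) were near the limit of detection. The part of cell composition in the collagen ratios was not tested.

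**Figure D4:**
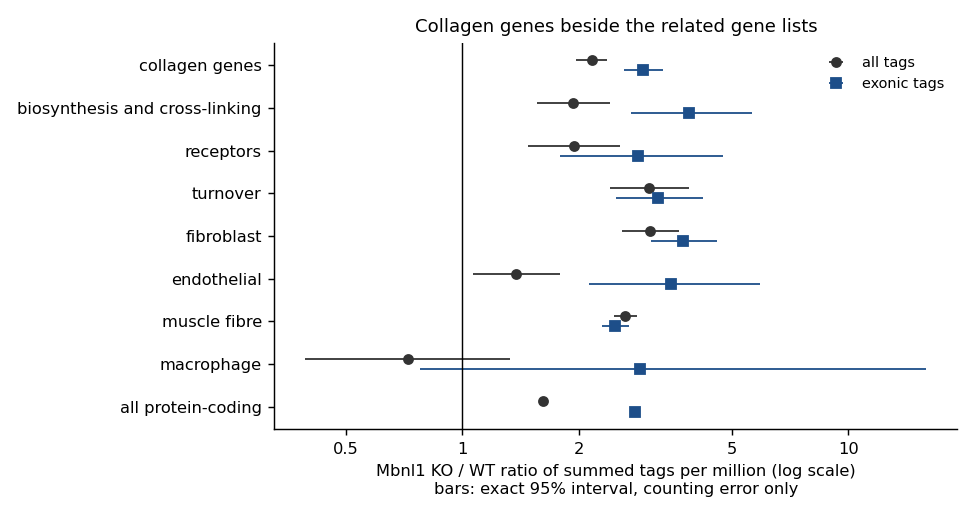
Mbnl1 KO/WT ratio of summed tags per 1000000 (log scale), over all tags and over exonic tags, for the collagen genes, the related gene lists, cell type markers and all protein-coding genes, with exact 95% intervals. On exons the collagens (2.94) lie near all protein-coding genes (2.80), and fibroblast markers at 3.73.

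The size of the ratios depended on which tags were counted and on the total they were divided by. With single-base tags left out of both, the collagen sum was 1.61 (1.47 to 1.78) and the exonic sum 2.004 (1.78 to 2.26). Exonic tags went only from 357 and 1455 to 355 and 1446, so the exonic fall from 2.94 came almost wholly from the changed total. At 7 of 22 genes the interval lay above 1 (Col1a1, Col1a2, Col3a1, Col6a1, Col6a2, Col6a3 and Col15a1), beside 26.5% of all protein-coding genes. The tables held 5176203 WT and 50329234 Mbnl1 KO reads, and 79.0% and 59.5% of their tags had 1 read. With at least 2 reads per tag as well, the exonic sum was 1.28 (1.11 to 1.49), beside 1.46 over all protein-coding genes, and 2 of 14 genes (Col1a2 and Col3a1) had an interval above 1, beside 11.1% of all protein-coding genes. Under those 2 conditions together Col1a1 had a ratio of 1.05 (0.828 to 1.35) and Col6a3 1.21 (0.852 to 1.75). Coding sequence stayed above the 3′ UTRs in each setting that counted other tags (rescaling cannot change this order), and without the 4 genes with most tags (4.26, 2.92 to 6.40, against 2.27, 1.78 to 2.90). With both filters the ratios were 1.66 (1.36 to 2.04) against 0.923 (0.742 to 1.16). The coding share of collagen exonic tags ranged from 45.3% to 51.9% in WT and from 61.1% to 64.8% in Mbnl1 KO over the settings that kept these 4 genes or left out Col1a1 alone.

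**Figure D5:**
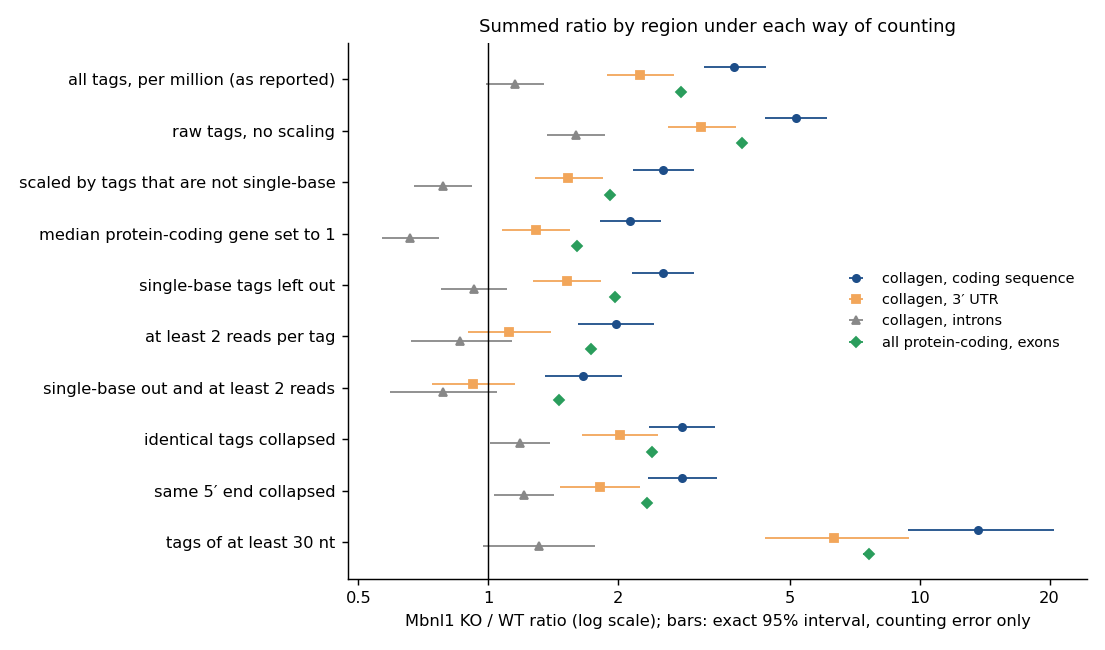
Summed Mbnl1 KO/WT ratios (log scale) of collagen coding sequence, 3′ UTRs and introns and of all protein-coding exons under 10 ways of counting or scaling, with exact 95% intervals. Coding sequence lies above the 3′ UTRs in each, an order that the scalings cannot change, while both ratios move from 13.6 and 6.34 with tags of at least 30 nt to 1.66 and 0.923 with both filters.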

How the data were processed

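Mbnl2 HITS-CLIP tags of quadriceps were analysed as 1 table each for WT and Mbnl1 KO, each merging 3 mice. The authors aligned reads to mm9 with BWA (version not given in the sources used here), discarded short sequences and removed potential PCR duplicates. In the deposited tables the count beside each tag is its number of collapsed reads, not normalized, and each row is 1 unique tag. Depth was 343554 WT and 476543 Mbnl1 KO tags, from 5176203 and 50329234 reads.

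From there, tags overlapping a gene on its strand were counted with Python 3.11.15, numpy 2.4.6, pandas 2.3.3, scipy 1.17.1, pysam 0.24.0 and samtools 1.23.1, placed by their midpoint in coding sequence, 3′ UTR, 5′ UTR, other exon or intron of mm9 GENCODE vM1, and divided by all tags of the table. Where tags were filtered, the table total was filtered in the same way. Intervals of ratios are 95% Clopper-Pearson intervals of the Mbnl1 KO share. A gene list was described by its counts beside all protein-coding genes with at least 20 tags. Named were members with at least 20 tags or at least 5 exonic tags, and the 10 largest clusters. Col27a1 and Col9a3 were named after their values were seen, and Serpinh1 was named below the limit of 20 tags. The members and lists were chosen with earlier results of these data known. The counting and intervals were tested on simulated data. The names Col21a1 and Col26a1 matched no member, and the 7 clusters made mostly of single-base tags were left without sequence.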

Additional observations from a re-analysis of the deposited data

How the results depend on the processing

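No paired analysis was possible because each genotype is 1 merged table, and for the same reason no mouse could be left out. Without scaling, the collagen sum was 3.00, its exonic sum 4.08, its intronic sum 1.60, the median of all protein-coding genes 2.42, and 18 of 26 collagen genes had a ratio of at least 2 (62.9% of all protein-coding genes). Scaled by tags that are not single-base, these were 1.47, 2.01, 0.785, 1.19 and 4 (20.5% of all), with a collagen median of 1.23, 7 intervals above 1 (19.4% of all), 3 below it (10.3% of all), and a basement membrane sum of 0.872. With the median protein-coding gene set to 1.00, they were 1.24, 1.68, 0.659 and 3 (13.7% of all), with a collagen median of 1.03 and 5 intervals above 1 (11.8% of all). Among genes and classes whose interval had lain above 1, Col4a1 (0.964), the basement membrane class (0.732) and the FACIT class (0.896) then had values below 1.

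With single-base tags left out, the sums were 1.61, 2.004 on exons and 0.925 in introns, the medians 1.36 over collagen and 1.48 over all protein-coding genes, with 7 intervals above 1 (26.5% of all) and 5 ratios of at least 2 (29.1% of all) in 22 genes. With at least 2 reads per tag the sums were 1.36, 1.54 and 0.862, the median of all genes 1.49, the collagen cluster median 1.49, with 4 intervals above 1 (18.7% of all) and 3 ratios of at least 2 (31.1% of all) in 14 genes. Of those with an interval above 1 before, Col12a1 (0.980), Col4a1 (0.797) and the basement membrane class (0.866) then lay below 1. With both, the sums were 1.17, 1.28 and 0.783, the medians 1.38 and 1.33, with 2 intervals above 1 (11.1% of all) and 1 ratio of at least 2 (22.6% of all) in 14 genes. Of the values whose interval had lain above 1, those below 1 were Col12a1 (0.783), Col4a1 (0.686), Col4a2 (0.999), the basement membrane (0.755) and FACIT (0.919) classes and the summed 3′ UTRs (0.923). Members whose interval held 1 from the start also crossed 1 in these settings, among them Col6a6 (1.55 to 0.890, 0.560 and 0.470 with the median gene at 1, at least 2 reads and both filters).

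Collapsing identical tags gave 1.85, 2.39 on exons and a median of all genes of 1.56, and collapsing tags with the same 5′ end gave 1.80, 2.30 and 1.59. Tags of at least 30 nt gave 5.05, 9.71, medians of 7.66 (collagen) and 3.37 (all), and 9 intervals above 1 of 10 genes (63.5% of all), at a median exonic collagen tag length of 23 nt in WT and 27 nt in Mbnl1 KO. Medians of all genes were 1.68 and 1.95 with at least 10 and at least 50 tags. Without Col1a1, Col6a3, Col1a2 and Col3a1 the sum was 1.63 and the coding share of exonic tags 24.4% in WT and 39.0% in Mbnl1 KO, and the cluster median was 2.07 with at least 10 tags per cluster, against 3.24. The cause of these differences was not tested. Counting by midpoint and leaving out tags over another gene moved no value beyond its interval. Scaling at single genes and classes, the coding and 3′ UTR sums and leaving out genes were chosen after the data were seen. Depth limits genes with few tags, where only large ratios leave an interval clear of 1.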
